A study of Homo sapiens with 132 samples.

Results

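MKN7 cells treated with 0.5 µM afatinib for 24 h were compared with untreated MKN7 cells of the same time point, in 3 libraries each. MKN7 is an established human gastric cancer cell line derived from a metastatic site. These 6 libraries are part of a series of 132 RNA sequencing libraries from gastric cancer cell lines that were treated with trastuzumab, afatinib or both, and in some lines with cetuximab, EGF or both, and 24 of the 132 are MKN7. They were chosen by their labels alone, as all libraries with the cell line MKN7, the time 24 h and the treatment afatinib without trastuzumab, or no treatment, and the rule used no expression value. All cells grew in RPMI medium with fetal calf serum, the medium was changed before treatment, and the control was untreated cells and not the solvent control. The question of the comparison is what a blockade of the ERBB receptors does to the transcriptome of this line within 24 h. The submitters called the replicates biological triplicates, and every statement holds for 1 cell line in culture.

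Afatinib binds covalently to the kinase domains of EGFR, HER2 (the product of ERBB2) and HER4, so that signals of ERBB dimers, those with HER3 included, are blocked. These receptors signal mainly through RAS, RAF, MEK and ERK, which induce immediate early transcription factors and cyclin D1, and through PI3K and AKT, which keep FOXO transcription factors out of the nucleus. Both branches carry feedback: ERK induces its own inhibitors, such as the DUSP phosphatases and the Sprouty proteins, while FOXO factors induce receptor genes such as ERBB3 when AKT no longer restrains them. In gastric cancer ERBB2 is amplified in a subset of tumours.

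Total gene counts ranged from 49119022 to 58122812 over the 6. Of 65217 gene identifiers, 18483 passed the filter on low counts and were tested. In the afatinib libraries 97.5% of counts fell on protein-coding genes, against 98.1% to 98.3% in the untreated libraries, and 24254 to 25020 genes had a count, against 23420 to 24018. The epithelial keratins and EPCAM were high in all 6 libraries: KRT8 ranged from 1871 to 3458 CPM, the count of a gene scaled to a common library total. Of 16 markers of fibroblasts, endothelium and immune cells 9 could be tested, and 8 of them stayed at 2.16 CPM or below in every library, while COL1A1 lay at 14.2 to 23.8 CPM. Of the 9, 6 passed higher and 4 were regulated higher with afatinib, beside 33.1% and 11.0% of all genes tested. Among the 6253 genes at or below a mean log2 CPM of 1, 1342 were regulated higher. The summed level of the 9 was 16.7 to 22.9 CPM untreated and 23.1 to 29.5 CPM with afatinib. The part of these markers in other results was not tested. Untreated replicate 3 stood apart from the other untreated libraries: it was the lowest of the 3 for 1482 of the 2026 genes regulated higher (73.1%) and the highest of the 3 for 482 of the 618 genes regulated lower (78.0%), against 39.6% and 35.6% of all genes tested. Without it 1789 genes were regulated higher and 557 lower. Because these are bulk samples, fewer cells in a state and less RNA per cell cannot be told apart.

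After 24 h afatinib 2026 genes were regulated higher, which is 11.0% of the genes tested, and 618 were regulated lower, which is 3.34%. Here "regulated" means an adjusted p below 0.05 in edgeR's quasi-likelihood test together with a log2 fold change (log2FC) beyond 1 in either direction, and "passed" means the adjusted p alone. With the p alone 6127 genes (33.1%) passed higher and 5653 (30.6%) passed lower. For 10520 genes (56.9%) the 3 afatinib libraries did not overlap the 3 untreated ones. The median log2FC over all genes tested was 0.04.

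The excess of higher over lower genes was larger among weakly expressed and non-coding genes. At or below a mean log2 CPM of 1, 1342 genes were regulated higher and 269 lower. Above 1 the counts were 684 and 349, and above a mean log2 CPM of 5 they were 106 and 132. Of 13874 protein-coding genes 1078 were regulated higher and 480 lower, with a median log2FC of -0.04. Of 4609 other genes 948 were regulated higher and 138 lower, with a median of 0.38. Long intergenic RNAs had 432 of 1632 genes regulated higher, at a median of 0.52, and antisense genes had 262 of 1221. Whether the counting used strand is not given in the sources used here, so the reads of an antisense gene and of its partner cannot be told apart. Part of this split depends on scaling: with library size alone in place of TMM factors the median of all genes moved up by 0.11, and 2466 genes were regulated higher and 470 lower.

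**Figure D1:**
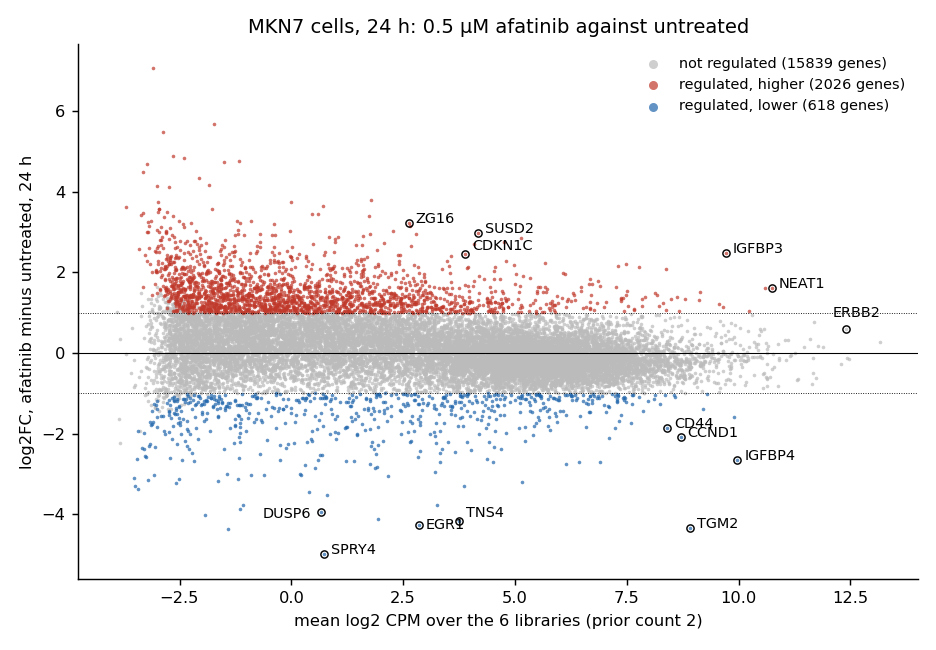
The log2 fold change of each of the 18483 genes tested (y axis, afatinib minus untreated at 24 h) against its mean log2 CPM over the 6 libraries (x axis). Red points are the 2026 genes regulated higher, blue points the 618 regulated lower, and dotted lines mark a log2FC of 1 and -1. Red points crowd at low levels, while single abundant genes such as TGM2 at -4.35 lie far below the line.

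Among genes with a mean log2 CPM above 1, the largest fall was in TGM2 (chr20:38127387-38166578, minus strand, hg38), the gene of transglutaminase 2, which crosslinks proteins. TGM2 measured 1813, 2029 and 2859 CPM in the untreated libraries and 102, 96.2 and 125 CPM in the afatinib libraries. The groups were far apart, with a log2FC of -4.35 ± 0.08 (SE, n = 3 per group) and an adjusted p of 5.1e-20 in edgeR. EGR1, an immediate early transcription factor, fell from 26.1, 30.6 and 38.8 to 2.09, 1.35 and 1.53 CPM, a log2FC of -4.26. TNS4, a tensin of focal adhesions, fell from 47.0, 50.02 and 77.1 to 2.92, 3.75 and 2.82 CPM. In all 3 genes every afatinib library lay below every untreated library. The other largest falls were ETV5 (-4.12), COL13A1 (-3.78), HMGA2 (-3.31), PHLDA1 (-3.21), the long non-coding RNA LINC00941 (-3.05), PLK3 (-2.96) and MYEOV (-2.85). HMGA2 encodes an architectural chromatin protein and COL13A1 a transmembrane collagen. Both were highest in untreated replicate 3, at 92.1 CPM for HMGA2 and 64.1 CPM for COL13A1.

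Of the 10 largest rises, 5 were pregnancy-specific glycoproteins, secreted members of the CEACAM family. PSG5 rose from 1.68, 1.35 and 0.188 to 15.7, 16.7 and 11.2 CPM, and PSG1, PSG8, PSG9 and PSG7 rose with log2FC of 3.41, 3.15, 2.95 and 2.92. These genes are near-identical neighbours on chromosome 19, so their reads may be shared and the split between them is uncertain. ZG16, a lectin of secretory granules, rose from 3.86, 2.51 and 0.649 to 25.9, 20.8 and 15.5 CPM, a log2FC of 3.22. SUSD2, a membrane protein, rose from 6.44, 7.22 and 5.63 to 64.6, 52.99 and 37.8 CPM, a log2FC of 2.99. The afatinib libraries lay above the untreated ones throughout, and untreated replicate 3 was the lowest library for PSG5, ZG16 and SUSD2. GLP2R, the receptor of glucagon-like peptide 2, rose by 3.02, FAM198B by 2.95 and GLYAT, a glycine N-acyltransferase, by 2.88 on the log2 scale.

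The abundant regulated genes, by CPM and not per length, included growth factor binding proteins in both directions. IGFBP4 fell from 2172, 2258 and 3309 to 391, 458 and 358 CPM, while IGFBP3 rose from 463, 482 and 208 to 2320, 2363 and 1458 CPM. Both bind insulin-like growth factors outside the cell. NEAT1, the scaffold RNA of paraspeckles, rose from 1085, 1089 and 794 to 2963, 2989 and 2977 CPM, a log2FC of 1.60. Further abundant rises were ALPP (placental alkaline phosphatase, 1.61, with near-identical relatives), TXNRD1 (thioredoxin reductase, 1.05) and PRSS23 (a serine protease, 1.13). Further abundant falls were the chromatin protein gene HMGA1 (-1.58) and the actin regulators COTL1 (-1.38) and PFN1 (-1.01).

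All 4 receptor genes of the ERBB family passed, 3 higher and EGFR lower, and none reached a log2FC of 1 in either direction. Over all genes tested 33.1% passed higher and 30.6% lower. ERBB2 (chr17:39687914-39730426, plus strand, hg38) measured 4960, 4834 and 3554 CPM untreated and 6826, 6900 and 6332 CPM with afatinib. Its log2FC was 0.60 ± 0.06 (SE), with an adjusted p of 1.7e-08 in edgeR. EGFR fell from 426, 490 and 582 to 267, 303 and 289 CPM, a log2FC of -0.79 ± 0.08. The groups did not overlap for either gene, which held for 56.9% of all genes tested. ERBB3, which encodes the kinase-impaired partner of HER2, rose from 42.5, 40.3 and 33.4 to 60.97, 58.9 and 54.4 CPM (log2FC 0.59). ERBB4 rose from 7.93, 10.0 and 7.89 to 12.6, 11.9 and 12.96 CPM (log2FC 0.54).

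Of the ligands of EGFR 4 fell, where 30.6% of all genes tested passed lower. AREG (amphiregulin) went from 36.2, 24.8 and 58.9 to 7.01, 4.29 and 11.4 CPM, a log2FC of -2.41 ± 0.07 with an adjusted p of 3.3e-17 in edgeR. EREG (epiregulin) went from 106, 73.2 and 134 to 28.4, 17.02 and 47.7 CPM, and HBEGF (heparin-binding EGF-like growth factor) from 69.7, 72.8 and 127 to 35.0, 31.9 and 29.4 CPM. In each of the 3 ligands all afatinib libraries lay below all untreated ones. TGFA passed lower without reaching the fold limit, at a log2FC of -0.68. BTC passed higher at 0.29, but not without the replicate block and not with the 6 libraries alone. Of the neuregulins NRG1, NRG2, NRG3 and NRG4, all at 1.20 CPM or below, none passed.

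**Figure D2:**
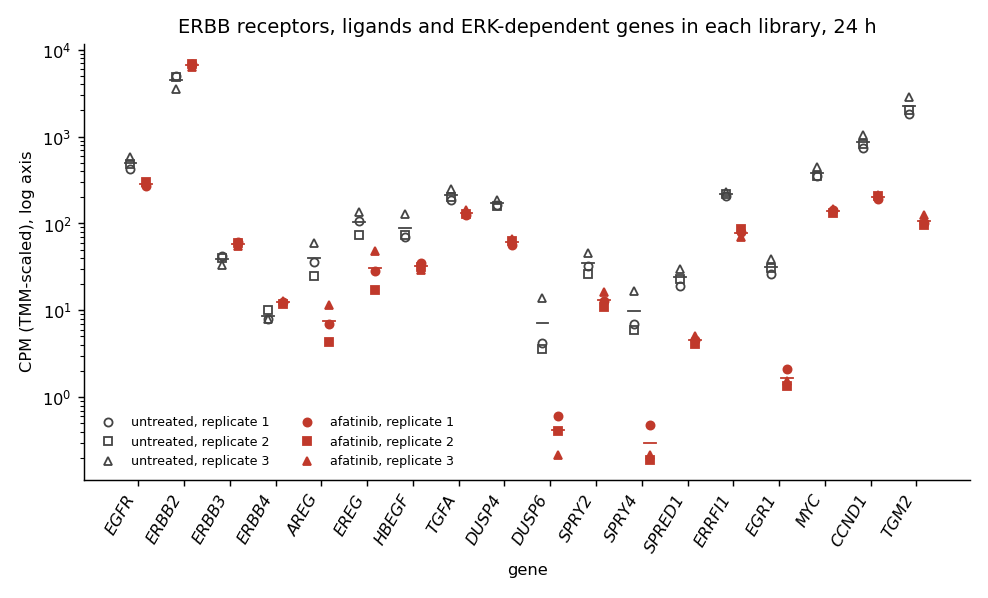
CPM of 18 genes on a log axis in each of the 6 libraries at 24 h. Open grey symbols are untreated and filled red symbols afatinib libraries, with 1 symbol shape per replicate and a line at each group mean. ERBB2, ERBB3 and ERBB4 lie higher with afatinib, and the other 15 genes lie lower, with no overlap between the groups.

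The genes that ERK induces to limit its own signal fell together. Of 12 ERK feedback inhibitors 11 were regulated lower, none passed higher, and the median log2FC was -1.64 beside 0.04 for all genes tested. Regulation lower was found for 3.34% of all genes tested and passing higher for 33.1%. SPRY4, a Sprouty protein (chr5:142310427-142326455, minus strand, hg38), fell from 6.90, 5.89 and 16.8 to 0.480, 0.190 and 0.218 CPM, a log2FC of -5.00 ± 0.30. DUSP6, the cytoplasmic phosphatase of ERK, fell from 4.18, 3.56 and 13.9 to 0.614, 0.413 and 0.218 CPM, a log2FC of -3.95. In both genes untreated replicate 3 was more than 2 times higher than the other untreated libraries, and the afatinib libraries were below all of them. The further falls were PHLDA1 (-3.21), SPRED1 (-2.38), SPRED2 (-2.33), DUSP5 (-1.80), ERRFI1 (-1.48), DUSP4 (-1.47), DUSP7 (-1.45), SPRY1 (-1.38) and SPRY2 (-1.37). SPRED1 and SPRED2 bind neurofibromin and restrain RAS, and ERRFI1 binds and inhibits EGFR itself. SPRED3, at 1.18 to 2.01 CPM, did not pass, with a log2FC of -0.24. The mean log2 CPM over the list was 4.43, 4.37 and 5.03 in the untreated libraries and 2.65, 2.37 and 2.39 in the afatinib libraries.

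Of 14 ERK-induced transcription factors that could be tested, 8 were regulated lower, where 3.34% of all genes tested were, and the median log2FC was -1.39. Besides EGR1 and ETV5 the largest falls were FOSL1 (-2.70), a partner of JUN in AP-1, and ETV1 (-2.65), an ETS factor. FOSL1 measured 252, 221 and 499 CPM untreated and 46.1, 33.8 and 65.1 CPM with afatinib. MYC, named here after its values were seen, fell from 348, 349 and 450 to 144, 132 and 147 CPM, a log2FC of -1.43. The list was not uniform. JUN, KLF10 and FOSL2 passed lower with log2FC between -0.29 and -0.15, IER2 and EGR3 did not pass, and ATF3, a stress-induced factor, passed higher at 0.99.

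Genes of PI3K and FOXO feedback moved less and mostly up: of 17 tested, 11 passed higher and 5 lower, with 2 regulated in each direction and a median of 0.34. Over all genes tested 33.1% passed higher, 30.6% passed lower, 11.0% were regulated higher and 3.34% lower. The 5 that passed lower and the 2 regulated higher were thus close to the shares of all genes. PIK3IP1, an inhibitor of PI3K, rose from 5.83, 5.05 and 4.31 to 15.2, 16.7 and 11.9 CPM (log2FC 1.53). FOXO4 rose from 8.50, 7.65 and 6.70 to 18.4, 18.4 and 15.8 CPM (log2FC 1.21). The rises below the fold limit were CITED2 (0.97), BCL6 (0.83), CCNG2 (0.67), FOXO6 (0.64), IGF1R (0.63), INSR (0.42), PDK4 (0.34), FOXO3 (0.27) and TXNIP (0.23). IGF1R and INSR encode the receptors of insulin-like growth factor 1 and insulin. Their adaptors went the other way: IRS1 fell by 1.06 and IRS2 by 0.90 on the log2 scale. The pseudokinase gene TRIB2 fell from 6.21, 6.64 and 10.1 to 1.29, 1.46 and 2.20 CPM (log2FC -2.21), and FOXO1 (-0.33) and SESN1 (-0.25) also passed lower. The calls of PDK4, FOXO3 and TXNIP were lost without the replicate block, and that of SESN1 with library size alone.

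Cell cycle genes fell together, mostly by less than a log2FC of 1. Of 41 S phase genes tested all 41 passed lower and 5 were regulated, with a median log2FC of -0.71. Of 53 G2/M genes all 53 passed lower and 2 were regulated, with a median of -0.69. Passing lower was found for 30.6% of all genes tested. The groups did not overlap for any gene of either list, which held for 56.9% of all genes. The mean log2 CPM of the S phase list was 5.96 to 6.08 in the untreated libraries and 5.14, 5.16 and 5.50 in the afatinib libraries. That of the G2/M list was 7.09, 7.07 and 7.08 untreated and 6.43, 6.34 and 6.46 with afatinib. Afatinib replicate 3 kept the highest S phase level of the treated libraries.

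The largest S phase falls were RRM2 (-1.28), DSCC1 (-1.15), CLSPN (-1.03) and CDC45 (-1.02). RRM2, the small subunit of ribonucleotide reductase, measured 281, 290 and 347 CPM untreated and 111, 112 and 159 CPM with afatinib. In G2/M they were PSRC1 (-1.23), AURKB (-1.15), CDCA3 (-0.98) and CKAP2L (-0.96). AURKB, the kinase of the chromosomal passenger complex, measured 138, 132 and 180 CPM untreated and 65.5, 58.0 and 79.9 CPM with afatinib. Of 12 E2F and RB family genes 10 passed lower, beside 30.6% of all genes tested. They included E2F7 (-0.95), E2F2 (-0.90), TFDP1 (-0.77) and E2F3 (-0.69). RBL2, which encodes the RB relative p130 of resting cells, passed higher at 0.54.

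Of 15 cyclins, CDKs and CDK inhibitors tested, 4 were regulated lower and 1 higher, beside 3.34% and 11.0% of all genes. CCND1 (cyclin D1, chr11:69641087-69654474, plus strand, hg38) fell from 744, 821 and 1047 to 194, 205 and 214 CPM, a log2FC of -2.08 ± 0.08. CDKN2D fell by 1.22, CCNE1 (cyclin E1) by 1.20 and CCND3 by 1.12 on the log2 scale. CDKN1C, which encodes the CDK inhibitor p57, rose from 8.29, 5.76 and 5.19 to 33.9, 32.3 and 38.6 CPM, a log2FC of 2.45 ± 0.15. CDKN1B, which encodes p27, passed higher at 0.47. CDKN1A, which encodes p21, passed lower at -0.91, but its untreated values of 18.7, 14.4 and 55.2 CPM overlapped the afatinib values of 13.9, 11.5 and 16.2 CPM.

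The promoters of these lists were read from RefSeq (GRCh38.p14) as windows of 300 bases, 250 before to 50 after each annotated start, on both strands. The motif of E2F factors, spelled TTTCGCGC or TTTGGCGC, was in 12 of 42 windows of S phase genes (28.6%; 31 of 41 genes matched) and in 1.15% of all 35116 windows. The cell cycle homology region TTTGAA, through which the MuvB complexes act on mitotic genes, was in 35 of 56 windows of G2/M genes (62.5%; 44 of 53 genes matched) and in 15.2% of all windows. Both lists are defined by cell cycle function, so this describes the lists and not the response to afatinib. Among the genes regulated lower the shares were 0.178% for E2F and 12.1% for TTTGAA, and among those regulated higher 0.660% and 12.9%. In windows of the other genes tested they were 1.70% and 10.7%. Here 377 of the 618 and 961 of the 2026 genes had a window. For each list the windows of the 2 genes that fell most among those with a match are printed to show where the motif sits relative to the start, which lies at position 251. They were chosen after the values were seen, and capitals mark the motif. EXO1, an exonuclease, fell by 0.92, CDC6, a licensing factor of replication origins, by 0.86, and CDCA3 and CKAP2L by 0.98 and 0.96 on the log2 scale.
EXO1 window, chr1:241847954-241848253, strand +: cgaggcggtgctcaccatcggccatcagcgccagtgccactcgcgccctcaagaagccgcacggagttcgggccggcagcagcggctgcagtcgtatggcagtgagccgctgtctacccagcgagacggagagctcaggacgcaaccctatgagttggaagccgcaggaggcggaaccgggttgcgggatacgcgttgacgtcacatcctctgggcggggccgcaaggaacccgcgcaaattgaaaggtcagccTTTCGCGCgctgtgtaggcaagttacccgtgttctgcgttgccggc
CDC6 window, chr17:40287629-40287928, strand +: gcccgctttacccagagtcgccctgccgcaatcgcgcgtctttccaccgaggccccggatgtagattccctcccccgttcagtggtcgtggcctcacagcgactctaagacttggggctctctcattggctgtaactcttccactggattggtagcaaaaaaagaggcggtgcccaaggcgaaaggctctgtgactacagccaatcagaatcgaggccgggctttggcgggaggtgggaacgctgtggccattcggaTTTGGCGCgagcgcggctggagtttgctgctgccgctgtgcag
CDCA3 window, chr12:6851237-6851536, strand -: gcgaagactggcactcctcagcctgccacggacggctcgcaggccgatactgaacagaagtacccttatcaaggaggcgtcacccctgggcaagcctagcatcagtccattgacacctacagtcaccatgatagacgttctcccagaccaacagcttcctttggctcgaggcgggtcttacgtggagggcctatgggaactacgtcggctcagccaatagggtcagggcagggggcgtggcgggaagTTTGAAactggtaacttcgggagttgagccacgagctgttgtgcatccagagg
CKAP2L window, chr2:112764560-112764859, strand -: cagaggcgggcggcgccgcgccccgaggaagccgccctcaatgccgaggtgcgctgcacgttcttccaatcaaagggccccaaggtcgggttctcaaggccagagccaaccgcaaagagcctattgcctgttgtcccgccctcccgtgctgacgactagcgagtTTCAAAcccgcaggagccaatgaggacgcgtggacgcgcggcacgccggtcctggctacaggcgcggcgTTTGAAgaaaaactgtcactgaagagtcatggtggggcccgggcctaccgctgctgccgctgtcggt
In EXO1 and CDC6 the E2F motif began at positions 255 and 258, just past the start. In CDCA3 the TTTGAA began at position 248, at the start itself. CKAP2L held 2 matches, at positions 165 and 234, the first of them read on the opposite strand.

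Genes of growth metabolism fell as well. Of 41 ribosome biogenesis genes 40 passed lower and 8 were regulated, with a median log2FC of -0.71. RRP9, a protein of the U3 small nucleolar particle, fell from 88.5, 77.9 and 108 to 41.6, 36.1 and 45.6 CPM (log2FC -1.15). NOP56, a core protein of the box C/D particles, fell from 531, 477 and 632 to 264, 240 and 283 CPM (log2FC -1.05). TCOF1 (-1.13) and BOP1 (-1.11) fell in the same range, and UBTF, a factor of RNA polymerase I, was the only member that did not pass (-0.10). The ribosomal protein genes did not stand out: of 70 tested 15 passed lower, a smaller share than the 30.6% of all genes, none was regulated, and the median was -0.12, which turned positive with library size alone. Among the 15 were RPS26 (-0.64), RPL27 (-0.37) and RPL35 (-0.35).

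The E-box CACGTG, bound by MYC and by the lysosomal regulator TFEB, was in 17 of 39 windows of ribosome biogenesis genes (43.6%; 33 of 41 genes matched). It was in 12 of 40 windows of lysosome and autophagy genes (30.0%; 33 of 46 genes matched) and in 7.26% of all windows. The share was 10.5% among genes regulated lower, 7.19% among those regulated higher and 8.93% among the other genes tested. The 2 lists went opposite ways, so windows from both are printed, chosen after the values were seen as the members with the largest change that held the motif, with CACGTG in capitals. DDX21, a nucleolar helicase, fell by 1.04 on the log2 scale. CLN3, a lysosomal membrane protein, passed higher at 1.00, at only 0.134 to 0.461 CPM.
RRP9 window, chr3:51941855-51942154, strand -: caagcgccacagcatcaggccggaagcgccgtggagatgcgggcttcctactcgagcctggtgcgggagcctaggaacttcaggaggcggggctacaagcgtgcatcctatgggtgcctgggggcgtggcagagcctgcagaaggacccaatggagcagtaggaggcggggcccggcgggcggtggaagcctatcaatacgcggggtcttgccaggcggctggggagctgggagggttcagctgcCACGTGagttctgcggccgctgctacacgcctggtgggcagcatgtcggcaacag
DDX21 window, chr10:68956397-68956696, strand +: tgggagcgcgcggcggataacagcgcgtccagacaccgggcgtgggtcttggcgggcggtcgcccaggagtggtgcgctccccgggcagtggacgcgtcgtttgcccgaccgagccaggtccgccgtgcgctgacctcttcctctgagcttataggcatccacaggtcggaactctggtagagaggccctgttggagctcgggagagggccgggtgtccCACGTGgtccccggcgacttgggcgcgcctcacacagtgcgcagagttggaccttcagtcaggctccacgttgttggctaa
CLN3 window, chr16:28492025-28492324, strand -: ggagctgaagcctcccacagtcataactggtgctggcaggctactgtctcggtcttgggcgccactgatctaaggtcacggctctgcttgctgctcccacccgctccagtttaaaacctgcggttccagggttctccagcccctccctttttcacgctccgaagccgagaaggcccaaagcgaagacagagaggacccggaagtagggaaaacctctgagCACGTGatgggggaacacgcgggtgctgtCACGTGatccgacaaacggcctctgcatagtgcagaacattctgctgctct
The motif began at position 246 in RRP9 and 220 in DDX21, and at 221 and 250 in CLN3. EXO1, DDX21 and CLN3 each have 2 windows, and the one shown is the first that held the motif.

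Of 27 nucleotide synthesis genes 23 passed lower, where 30.6% of all genes did, at a median of -0.68. After RRM2 the largest falls were MTHFD2 (-1.16), IMPDH1 (-1.07) and CTPS1 (-1.02), the enzymes of mitochondrial folate, guanine nucleotide and cytidine nucleotide synthesis. ADSSL1 went against the list, from 5.12, 4.39 and 4.06 to 8.81, 8.54 and 8.98 CPM (0.96). Of 21 glycolysis genes 19 passed lower, at a median of -0.56. HK2, the inducible hexokinase, fell from 202, 238 and 221 to 88.7, 98.0 and 76.2 CPM (-1.33), followed by PDK1 (-0.86), HK1 (-0.85) and ENO1 (-0.77). PFKL passed higher at 0.21. Of 26 targets of ATF4 and tRNA synthetases 18 passed lower, led by PSAT1 (-1.16), an enzyme of serine synthesis, and the pseudokinase gene TRIB3 (-1.07), while DDIT3 (0.40), SLC7A5 (0.31), SLC3A2 (0.30) and VLDLR (0.29) passed higher. Of 40 nuclear-encoded respiratory chain genes 24 passed lower, at a median of -0.19, with CYC1 (-0.73) and NDUFB9 (-0.63) in front. These are abundant genes, with a list mean log2 CPM of 6.95 untreated. Their median was near the -0.16 of all 5936 genes with a mean log2 CPM above 5. With library size alone the list median was -0.08.

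Lipid and lysosome genes were mixed or higher. Of 22 cholesterol synthesis genes 12 passed higher and 3 lower, at a median of 0.21. TM7SF2, a sterol reductase, rose from 23.2, 20.7 and 18.8 to 53.8, 49.6 and 56.3 CPM (1.35), while HSD17B7 (0.60), MSMO1 (0.55) and HMGCS1 (0.53) passed higher and DHCR7 (-0.28) lower. Of 18 genes of fatty acid synthesis and oxidation 6 passed higher and 7 lower, where 33.1% and 30.6% of all genes did. The elongase gene ELOVL6 (-1.60) and the nuclear receptor gene PPARG (-1.25) were regulated lower, while PPARA (0.76) and CPT1A (0.73), of fatty acid oxidation, passed higher. Of 46 lysosome and autophagy genes 27 passed higher and 5 lower, at a median of 0.19. GABARAPL1, a protein of the autophagosome membrane, rose from 33.7, 25.8 and 23.6 to 70.4, 65.0 and 70.3 CPM (1.32). The cathepsin gene CTSL was regulated higher at 1.37, but its groups overlapped. GAA (0.96), which encodes the lysosomal glucosidase, also passed higher, while BNIP3 (-0.61), TFEB (-0.39), BNIP3L (-0.28) and ATP6V1A (-0.22) passed lower.

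**Figure D3:**
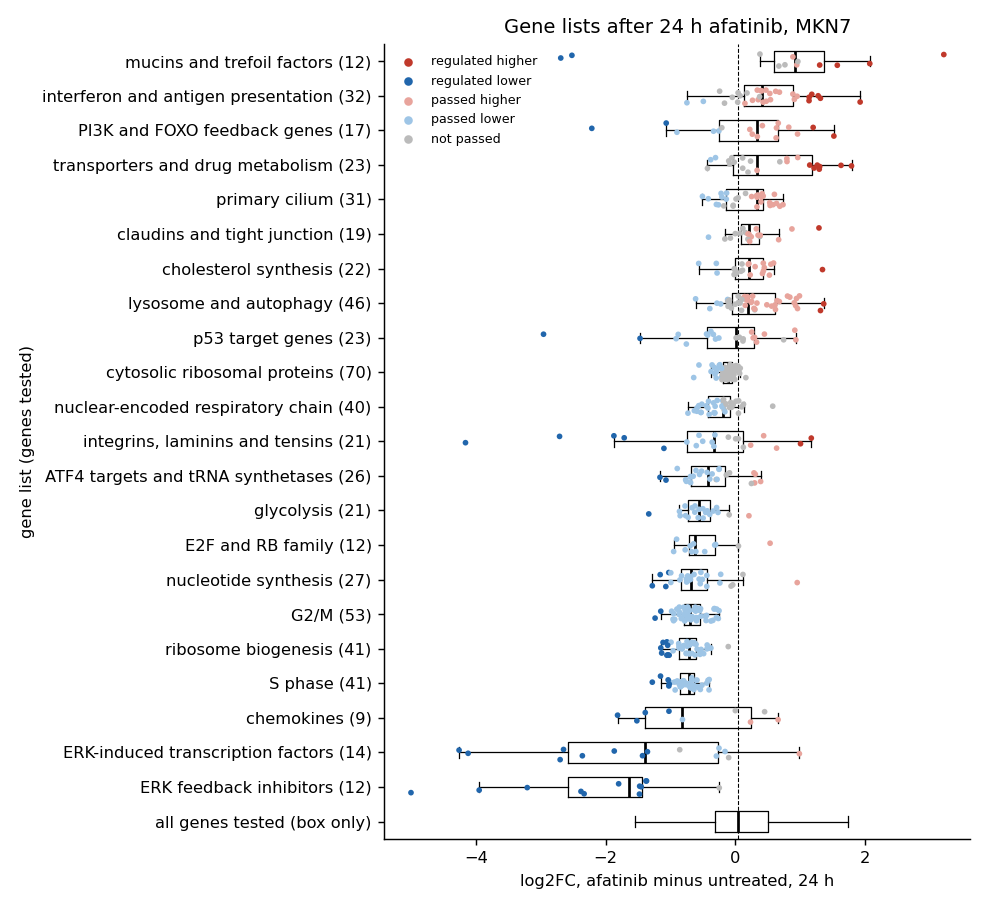
Log2 fold changes at 24 h (x axis, afatinib minus untreated) of the tested members of 22 gene lists (y axis, number tested in brackets) and of all genes tested. Boxes span the quartiles with the median as a thick line, whiskers reach to the last gene within 1.5 times the box, points are genes coloured by their call, and the dashed line is the median of all genes. The lists of ERK feedback, S phase, G2/M and ribosome biogenesis lie left of the dashed line, and mucins and interferon genes mostly right of it.

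Among genes of the gut surface, several mucins rose and the trefoil factor genes TFF1 and TFF2 fell. Of 12 tested members of this list 6 passed higher, 2 lower and 4 did not pass, at a median of 0.92. Over all genes tested 33.1% passed higher and 30.6% lower. MUC4, a membrane mucin, rose from 28.96, 35.7 and 27.4 to 84.8, 83.1 and 109 CPM (1.58), and MUC1 rose from 67.4, 66.1 and 30.0 to 145, 130 and 112 CPM (1.31). FCGBP, a mucus component, was also regulated higher, at no more than 0.442 CPM. TFF2, the trefoil peptide of gastric neck cells, fell from 6.32, 3.49 and 8.46 to 1.02, 0.698 and 1.04 CPM (-2.69), and TFF1 fell from 1.13, 0.825 and 2.58 to 0.403, 0.127 and 0.236 CPM (-2.52). All groups were apart, with untreated replicate 3 lowest for MUC1 and highest for both trefoil factors.

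Of 15 intestinal absorptive genes tested, all but PLAC8 at 8.24 CPM or below, 4 were regulated higher and 1 lower. The shares over all genes tested were 11.0% and 3.34%. This list is weakly expressed, with a mean log2 CPM of -0.05 untreated and 0.26 with afatinib. Of the 6253 genes at or below a mean log2 CPM of 1, 1342 were regulated higher and 269 lower. Set against those weak genes the list did not clearly stand out. DPP4, a brush border peptidase, rose from 1.53, 1.99 and 1.09 to 7.51, 6.79 and 4.02 CPM (1.98), followed by AOC1 (1.41) and CDHR2 (1.13). ALPI was at or near the limit of 3 counts, 0.0516 to 0.0611 CPM, in the untreated libraries, and it is near-identical to ALPP. MALL (-1.20) and CA2 (-0.81) passed lower. Of 16 lineage transcription factors 5 passed higher and 7 lower, beside 33.1% and 30.6% of all genes. ELF3, an epithelial ETS factor, rose from 35.3, 30.8 and 17.4 to 85.0, 71.4 and 71.8 CPM (1.49), and GATA6 (1.24) and CDX2 (1.06) rose too, whereas FOXA2 (-1.65), KLF4 (-1.31) and HES1 (-1.19) fell. Of 19 claudins and tight junction genes 10 passed higher and 1, CLDN7 (-0.41), lower. TJP3 (1.30) was regulated, and CLDN18 (0.88) and CLDN3 (0.67) passed.

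Transglutaminases and squamous genes split. TGM2 and the cornified envelope gene SPRR1B fell, SPRR1B from 1.30, 1.67 and 9.55 to 0.346, 0.349 and 0.654 CPM (-3.00). KRT17 (1.79), IVL (involucrin, 1.54), KRT16 (1.33) and TGM1 (1.10) rose. KRT17 measured 11.6, 9.10 and 7.22 CPM untreated and 37.9, 30.0 and 27.8 CPM with afatinib. Of 17 genes of epithelial to mesenchymal transition 6 passed higher and 5 lower, close to the 33.1% and 30.6% of all genes. SPARC, a matrix protein, rose from 117, 148 and 107 to 235, 300 and 297 CPM (1.17), ZEB2 rose by 1.37, and SNAI2 (0.88) and TGFB2 (0.87) passed higher. TGFB1 (-0.73), S100A4 (-0.63), SNAI1 (-0.49) and CDH1 (-0.42), the E-cadherin gene, passed lower. The median of this list was -0.02 and changed sign with library size alone, as did those of the fatty acid list, the lineage factors and the gastric epithelial markers.

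Adhesion and motility genes were mostly lower. Of 21 integrins, laminins and tensins 12 passed lower and 5 higher, beside 30.6% and 33.1% of all genes tested, at a median of -0.33. ITGA2, the collagen receptor subunit, fell from 161, 166 and 401 to 31.1, 31.3 and 40.1 CPM (-2.71), followed by ITGA6 (-1.87) and FERMT1 (-1.71). TNS3 went the opposite way to TNS4, from 241, 234 and 137 to 487, 452 and 411 CPM (1.18), and TNS1 rose by 1.01 on the log2 scale. TNS2 (0.64) and LAMA5 (0.44) passed higher too. The study picked a list of motility genes that afatinib, alone and with trastuzumab, regulated at 4 h in MKN1 cells of the same series. A response to afatinib was thus part of the selection, and ITGA2, HBEGF, CXCL8 and SPRY2 are also counted in other lists here. Of its 12 members tested in MKN7 at 24 h 9 passed lower and 5 were regulated lower, at a median of -0.89. ETS1, a transcription factor, fell from 254, 253 and 364 to 75.5, 68.2 and 94.2 CPM (-1.86), and ITGA2, HBEGF, CXCL8 (-1.39) and SPRY2 were the other regulated members. PTGS2 (-0.96), CXCL1 (-0.81), F2RL1 (-0.68) and F3 (-0.68) passed lower, CYR61 (0.27) passed higher, and PLPP3 did not pass (0.10). Of 9 chemokine genes 4 were regulated lower, CXCL5 (-1.81), CCL20 (-1.52), CXCL8 and CXCL2 (-1.02), and CXCL16 (0.67) and CCL28 (0.24) passed higher. Over all genes tested 3.34% were regulated lower and 33.1% passed higher.

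Interferon and antigen presentation genes mostly rose: of 32 tested 22 passed higher, 6 were regulated higher and 2 passed lower, at a median of 0.42. The shares over all genes tested were 33.1%, 11.0% and 30.6%. IFITM2, an antiviral membrane protein, rose from 3.04, 2.27 and 1.91 to 10.1, 8.45 and 8.78 CPM (1.93), followed by MX1 (1.32), IFI44L (1.28) and NLRC5 (1.19), the activator of MHC class I genes. CD274, which encodes PD-L1, passed lower, from 38.2, 31.9 and 57.5 to 25.8, 18.7 and 31.3 CPM (-0.74), and so did HLA-DRB1 (-0.49). PTPRC, the leukocyte marker CD45, was at most 0.480 CPM.

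The BCL2 family moved in both directions. BCL2 fell from 3.25, 3.26 and 4.84 to 0.384, 0.540 and 0.636 CPM (-2.85), and the survival genes BCL2L1 (-0.82) and MCL1 (-0.59) passed lower. The BH3-only genes, which promote apoptosis, were split. HRK rose from 4.57, 4.75 and 2.35 to 12.9, 15.4 and 8.94 CPM (1.69), BMF rose by 1.29 on the log2 scale, and BBC3 (0.73) and BCL2L11 (0.50) passed higher. BID (-0.66) and PMAIP1 (-0.63), also BH3-only genes, passed lower. MCL1 was named after its value was seen.

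At 4 h the ERK genes had already fallen, and most cell cycle genes had not. Afatinib at 4 h, against its own untreated libraries, gave 406 genes regulated higher and 341 lower. By the adjusted p alone 3265 of the 18483 genes tested passed higher and 3828 lower at 4 h. Of the 2026 genes regulated higher at 24 h, 234 (11.5%) were regulated higher at 4 h and 1357 had not passed. Of the 618 regulated lower, 171 (27.7%) were regulated lower at 4 h. Read the other way, 57.6% of the 406 and 50.1% of the 341 kept their call at 24 h. The ERK feedback list had a median log2FC of -2.08 at 4 h with all 12 members passing lower. SPRY4 stood at -5.20 at 4 h and -5.00 at 24 h and DUSP6 at -4.01 and -3.95.

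The difference of the 2 effects was tested as an interaction, since the time points share no library. In it 3247 genes (17.6%) passed higher and 3539 (19.1%) lower at 24 h than at 4 h, with 853 and 347 beyond a log2FC of 1. Without the replicate block 3321 in place of 6786 passed. All 41 S phase genes and all 53 G2/M genes were lower in this test. At 4 h the median of the S phase list was 0.07, with 14 genes passing higher and 4 lower, and that of the G2/M list was 0.23, with 34 passing higher and 1 lower. Among all 18483 genes tested 3265 passed higher and 3828 lower at 4 h. The mean log2 CPM of the G2/M list at 4 h was 7.06, 7.15 and 7.09 untreated and 7.32, 7.34 and 7.38 with afatinib, so the afatinib libraries were the higher ones at 4 h and the lower ones at 24 h. Ribosome biogenesis genes lay between, with a median of -0.49 at 4 h and 38 of 41 passing lower, and in the interaction 19 were lower at 24 h and 2 higher.

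Among genes past the threshold and above a mean log2 CPM of 1, TGM2 had the lowest interaction. At 4 h it measured 3001, 2609 and 2272 CPM untreated and 2137, 1720 and 1364 CPM with afatinib, a log2FC of -0.61, and the interaction was -3.75 with an adjusted p of 2.0e-16 in edgeR. Among the receptors the effect on ERBB2 grew, from 0.22 to 0.60 (interaction 0.38, adjusted p 0.0014), while that on ERBB3 shrank, from 0.90 to 0.59 (interaction -0.31, adjusted p 0.0023). Of the ligands TGFA and BTC were higher in the interaction and AREG and EREG lower. TGFA went from -1.55 to -0.68 (interaction 0.88, adjusted p 4.6e-09) and passed lower at both times. Of the 12 mucins and trefoil factors none passed at 4 h, and 6 were higher and 2 lower in the interaction. Of the 32 interferon genes 19 were higher in it and none lower.

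**Figure D4:**
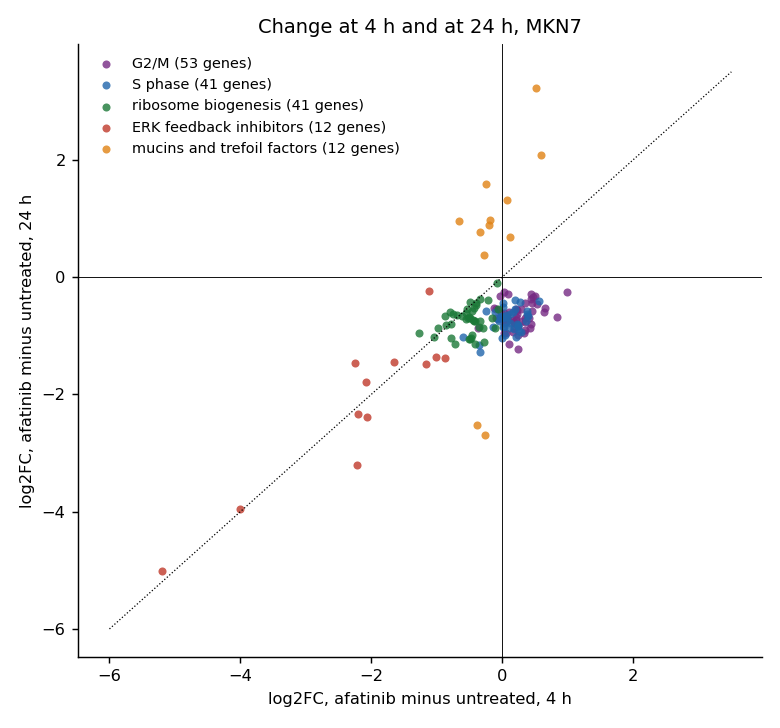
Log2 fold change with afatinib at 4 h (x axis) and at 24 h (y axis) for the genes of 5 lists, 1 point per gene, with a dotted line where both are equal. Most ERK feedback genes lie near the dotted line, S phase and G2/M genes lie below the horizontal axis around a 4 h change near 0, and most mucins lie above it, with TFF1 and TFF2 below.

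Adding trastuzumab, an antibody to HER2, to afatinib changed nothing that could be detected at 24 h. In the direct contrast of trastuzumab with afatinib against afatinib alone, 0 of 18483 genes (0%) passed in either direction in edgeR. DESeq2 gave 0 as well. In edgeR 211 genes had an unadjusted p below 0.05, a smaller share than the 0.05 that evenly spread p-values would give. Over the 2026 genes regulated higher by afatinib the median difference was -0.01, with 90% of genes between -0.42 and 0.28, and over the 618 regulated lower it was 0.01, between -0.40 and 0.58. Trastuzumab alone regulated 1 gene higher, the long non-coding RNA AC026333.3 (1.62), and 2 lower, NTRK2 (-1.67) and SPRR1B (-1.24), named after their values were seen. The contrasts against untreated share the untreated libraries and can only be put side by side: the genes regulated higher by afatinib had medians of 1.40 with afatinib, 1.39 with both agents and 0.29 with trastuzumab, and those regulated lower -1.37, -1.32 and -0.22.

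For lists of cell growth the effect in MKN7 lay between those in 2 other gastric cancer lines of the series. NCI-N87 and MKN1 were treated with the same dose for 24 h in 3 replicates each, and the 3 lines were scaled together for these values. On that scale ERBB2 measured 3835 to 5398 CPM in untreated MKN7, 13913 to 15968 CPM in NCI-N87 and 155 to 185 CPM in MKN1. Interaction tests over 21572 genes compared the effects. The afatinib effect in NCI-N87 was higher than in MKN7 for 16.0% and lower for 22.6% of genes, and beyond a log2FC of 1 for 1315 and 1382. With library size alone these last counts were 1642 and 1089. The effect in MKN1 was higher for 12.9% and lower for 11.1%, with 477 and 838 beyond a log2FC of 1. Without the replicate block 5542 in place of 8315 genes passed for NCI-N87 and 1993 in place of 5182 for MKN1.

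S phase genes fell most in NCI-N87, with a median of -1.98 beside -0.71 in MKN7 and -0.34 in MKN1. In the interaction 39 of 41 were lower in NCI-N87 than in MKN7, and 29 of 41 were higher in MKN1. For G2/M the medians were -1.01, -0.69 and -0.43, with 29 of 53 lower in NCI-N87 (4 were higher) and 19 of 53 higher in MKN1. Ribosome biogenesis followed with -1.34, -0.71 and -0.44. The ERK feedback list had medians of -2.25, -1.64 and -1.56, with 3 of 12 lower and 2 higher in NCI-N87, and 6 higher and 1 lower in MKN1. Cholesterol synthesis had opposite medians in MKN7 and NCI-N87, 0.21 and -0.60, and 19 of 22 genes were lower in NCI-N87 by the interaction.

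Of the named genes TGM2 had the highest difference between MKN1 and MKN7: its log2FC was -4.35 in MKN7, -3.16 in NCI-N87 and -0.56 in MKN1. The interaction for MKN1 minus MKN7 was 3.80, with an adjusted p of 8.8e-14 in edgeR. Untreated TGM2 was also much higher in MKN7, at 1973 to 3085 CPM beside 12.4 to 71.0 CPM in NCI-N87 and 55.2 to 67.5 CPM in MKN1. ABCG2, a drug efflux transporter, rose in MKN7 from 36.4, 28.9 and 22.9 to 92.3, 77.9 and 104 CPM (1.64) and fell in NCI-N87 (-2.66). GRAMD1B fell in MKN7 from 50.5, 31.3 and 102 to 14.95, 11.6 and 16.3 CPM (-1.98) and rose in NCI-N87 (3.76).

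**Figure D5:**
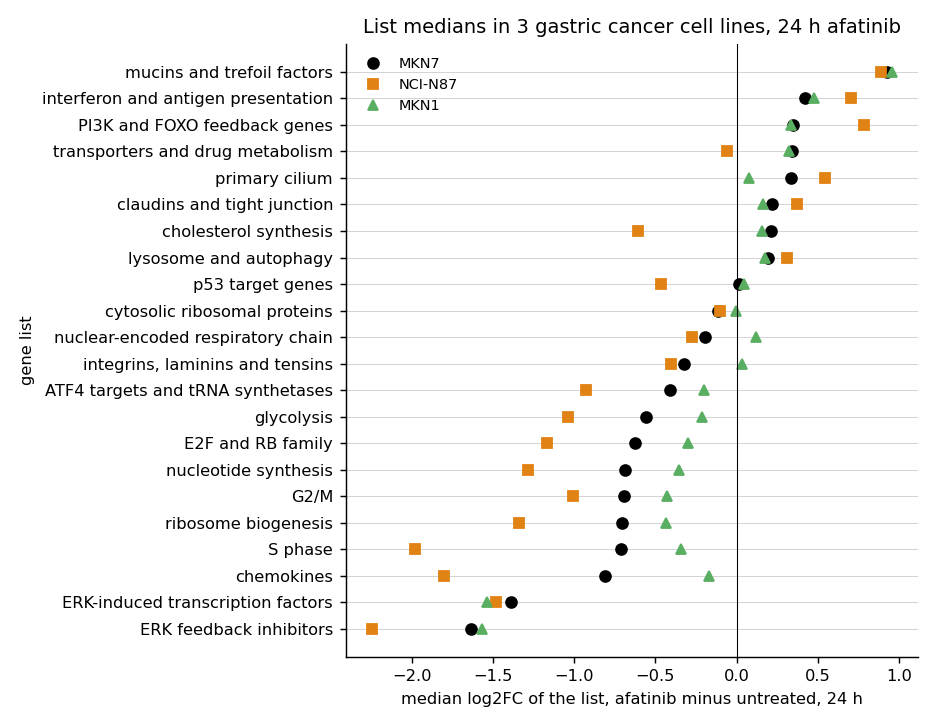
Median log2 fold change of 22 gene lists (y axis) with afatinib at 24 h (x axis) in MKN7 (black circles), NCI-N87 (orange squares) and MKN1 (green triangles). For S phase, G2/M and ribosome biogenesis NCI-N87 lies lowest, MKN7 in between and MKN1 nearest to 0, while the mucin medians of the 3 lines lie close together. Single mucin and trefoil genes differed: of 12 by interaction 3 were higher and 2 lower in NCI-N87 than in MKN7, and 2 were higher and 2 lower in MKN1. The shares over all genes were 16.0% and 22.6% for NCI-N87 and 12.9% and 11.1% for MKN1.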

How the data were processed

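RNA was isolated with the mirVana kit, and poly(A), directional libraries were sequenced paired-end on a NovaSeq. Trim Galore, STAR and hg38 are named in the submitters' processing notes, and versions and the counting tool are not given in the sources used here. The authors deposited raw counts per gene, 1 table per library. All 24 MKN7 libraries were fitted in edgeR 4.0.16 (R 4.3.3) with TMM factors, group means and the replicate number within each time point as a block, and Benjamini-Hochberg adjustment over 18483 genes. Genes needed about 10 counts in the smallest group and a total of 15 (filterByExpr). Each SE is the absolute log2FC divided by the square root of the F statistic of its quasi-likelihood test. CPM values are TMM-scaled. The log2 CPM values, and the CPM values at 4 h and over the 3 lines, carry a prior count of 2. A second fit over the 36 libraries of MKN7, NCI-N87 and MKN1 at 24 h gave the line comparisons. Symbols and coordinates come from GENCODE 29, in which 8404 identifiers (0.0598% of counts) were absent and used by identifier. All 37 mitochondrial identifiers had 0 counts.

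The replicate numbers were used as pairs because the rule of the comparison takes them so. Same-numbered untreated and afatinib libraries deviated together from their group means (Pearson r = 0.35, 0.37 and 0.31 over genes). Such deviations cancel out within each group, so the negative values for other numbers follow from these and add no further evidence. Replicates differed far beyond counting noise (mean chi-square per gene 18.4 to 76.0). With simulated counts for 18208 genes, all 100 genes changed by 1.5 on the log2 scale were recovered as regulated in the afatinib comparison at 24 h. Of genes changed by 0.5 and -0.5, 82% and 78% passed and 0% were regulated, and 16 unchanged genes passed. The changed genes were drawn only from genes above a minimum level in the untreated libraries, and no replicate effect was simulated. The recovery of genes below that level was therefore not measured. A count of 3, taken as the detection limit, is 0.0516 to 0.0611 CPM and covers counting error only.

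The comparison and the gene lists were chosen with earlier results of these data known. List members without a tested row are not analysed here, and the values of some members counted in the lists are not reported here. Named genes were the ERBB receptors, their ligands and all ERK feedback and PI3K/FOXO genes, up to 4 members with the largest change in each direction of every other list with any member against its list, the 10 largest changes each way among genes with a mean log2 CPM above 1 and 1 direction in all 3 pairs, the 5 most abundant regulated genes each way, the 5 largest each way of the other contrasts, and the motility genes of the study. Alternatives were DESeq2 1.42.0, no block, fewer libraries, library size alone, no or a stricter filter, and leaving out replicates.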

Additional observations from a re-analysis of the deposited data

Results flagged for a closer look

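The effect of afatinib at 24 h differed from that at 4 h by more than a log2FC of 1 for 853 genes in the higher and 347 in the lower direction (edgeR interaction, adjusted p below 0.05). The lowest differences were TGM2 (-3.75), COL13A1 (-2.99), SCG2 (-2.64), DMBT1 (-2.57) and MMP9 (-2.48). MMP9, a gelatinase, measured 35.6, 33.8 and 150 CPM in the untreated libraries at 24 h and 10.1, 8.43 and 8.98 CPM with afatinib, so that untreated replicate 3 was far above the others. The highest differences were the potassium channel gene KCNJ15 (2.78), SUSD2 (2.74), ZG16 (2.71), PSG9 (2.58) and LINC01133 (2.43). KCNJ15 had a log2FC of -0.48 at 4 h and 2.29 at 24 h.

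The effect in NCI-N87 differed from that in MKN7 for 1315 genes in the higher and 1382 in the lower direction. The lowest differences were ABCG2 (-4.29), MUC5AC (-4.22), FLJ22447 (-4.10), WNT10B (-4.07) and AC104024.2 (-4.05). MUC5AC stayed at or below 0.429 CPM in the 6 MKN7 libraries and did not pass there. The highest differences were GRAMD1B (5.74), PXDN (4.00), BCAS1 (3.96), CAMK2B (3.44) and DDIT4 (3.35). PXDN went from 2.90, 3.60 and 4.27 to 0.921, 0.905 and 0.854 CPM in MKN7 and moved the opposite way in NCI-N87, and BCAS1 was at 0.182 CPM or below in all MKN7 libraries.

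The effect in MKN1 differed from that in MKN7 for 477 genes in the higher and 838 in the lower direction. The lowest differences were B3GNT7 (-3.00), RAB36 (-3.00), ADGRB1 (-2.98), SUSD2 (-2.78) and NKAIN4 (-2.77). NKAIN4 rose in MKN7 from 7.89, 7.77 and 4.44 to 43.8, 43.9 and 43.4 CPM and had a log2FC of -0.04 in MKN1. The highest differences were TGM2 (3.80), MMP9 (3.56), COL13A1 (3.44), ADAMTS9 (3.19) and ARHGAP22 (2.98). ADAMTS9 had a log2FC of -1.81 in MKN7 and 1.38 in MKN1.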

How the results depend on the processing

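The same-numbered libraries were taken as pairs. Without the replicate block 1901 genes were regulated higher and 601 lower at 24 h, and 9528 in place of 11780 passed. For the difference from 4 h 578 and 286 genes were regulated and 3321 in place of 6786 passed, and for MKN1 minus MKN7 356 and 559 were regulated and 1993 in place of 5182 passed. For NCI-N87 minus MKN7 the counts were 1145 and 1212, with 5542 in place of 8315 passing. Requiring at least 10 counts in every library left 1506 regulated genes (1105 higher, 401 lower). Counting only genes with a mean log2 CPM above 1 left 1033 (684 and 349), and only protein-coding genes 1558 (1078 and 480), both chosen after seeing the data. Leaving out replicates gave 1635 to 2125 genes regulated higher and 531 to 709 lower. The count regulated higher at 24 h over 4 h ranged from 520, without replicate 3, to 763. Without a filter 1 gene, LINC00486 (1 lower), passed between trastuzumab with afatinib and afatinib. It measured 239 CPM in untreated replicate 3 and at most 0.319 CPM in the other untreated libraries. Over 70 named genes and 16 alternatives no log2FC of a called gene changed sign, and 20 values lost and 5 gained their call. The causes were not tested. Depth limits genes near 3 counts.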

Other observations

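Genes of further groups changed in MKN7 cells at 24 h, where 33.1% of all genes tested passed higher and 30.6% lower. Of 23 transporters and drug metabolism genes 11 passed higher, 7 of them regulated, and 2 lower. ALDH3B1, an aldehyde dehydrogenase, rose from 81.8, 66.3 and 44.3 to 257, 205 and 195 CPM (log2FC 1.80), ABCG2 by 1.64 and the heme oxygenase gene HMOX1 by 1.30 on the log2 scale. Of 12 WNT targets 5 passed in each direction: CD44 fell from 549, 589 and 850 to 178, 177 and 177 CPM (-1.87), while NOTUM, a WNT-inactivating enzyme, rose from 2.75, 1.59 and 1.38 to 9.08, 5.86 and 6.47 CPM (1.91).

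Of 21 NOTCH and BMP genes 6 passed higher and 7 lower, close to the shares of all genes. The NOTCH ligand genes DLL1 (-2.03) and JAG1 (-1.75) and the targets NRARP (-1.23) and HES1 (-1.19) fell. The BMP-responsive genes ID3 (1.69), BAMBI (1.55) and ID2 (1.49) and the ligand gene JAG2 (1.07) rose. Of 14 other receptor kinases FGFR2 rose from 4.09, 4.56 and 3.37 to 11.6, 10.9 and 10.2 CPM (1.45), EPHA2 (-0.99), FGFR4 (-0.95), ROR1 (-0.87) and DDR2 (-0.83) passed lower, and AXL (0.21) passed higher. PDGFRB rose by 1.72 on the log2 scale at no more than 2.16 CPM.

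Of 31 primary cilium genes 17 passed higher and 8 lower, at a median of 0.33 beside 0.04 for all genes. DYNC2LI1, a light chain of the ciliary dynein, measured 16.6, 16.4 and 15.5 CPM untreated and 27.1, 26.4 and 27.3 CPM with afatinib (0.74), followed by IFT140 (0.69). Of 23 p53 target genes 7 passed higher, close to the share of all genes, and 11 lower. PLK3 (-2.96) and AEN (-1.47) were regulated lower, and RPS27L (0.94) and GADD45A (0.92) passed higher.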
